A study of Mus musculus with 4 samples.

Results

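The CDK inhibitors are 7 small proteins that bind cyclin-dependent kinases and hold back the cell cycle. They were taken by symbol from a fixed list: Cdkn1a, Cdkn1b and Cdkn1c of the Cip/Kip family, and Cdkn2a, Cdkn2b, Cdkn2c and Cdkn2d of the Ink4 family. All 7 were among the 49585 genes of the count files, and 5 of them had enough counts to be tested. RNA was measured in 4 libraries of proliferating C2C12 cells, mouse myoblasts of C3H origin that form myotubes when serum is withdrawn. In 2 libraries the cells had been transduced with an empty retroviral vector, pLXSN, and in 2 with a virus that overexpresses C/EBPβ, the bZIP factor made from Cebpb. Both groups were selected in G418 at 1200 μg/ml for 7 days as pools of stable cells, not single clones, and both then grew for 48 h. The medium stated for the line holds 10% serum. The comparison asks how forced C/EBPβ alters the RNA of myoblasts kept in growth conditions.

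Cip/Kip proteins bind cyclin-CDK complexes through a shared amino-terminal region and act on many of them, CDK2 complexes above all. Ink4 proteins are built of ankyrin repeats and bind only CDK4 and CDK6, which keeps these kinases from D-type cyclins. In muscle, Cdkn1a and Cdkn1c are known for their part in the permanent cell-cycle exit of differentiating myoblasts, and Cdkn1a is also a classic target of p53.

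Cdkn1a, the most abundant of the 7 transcripts per gene length, fell in C/EBPβ cells, and Cdkn1c, the least abundant one detected, rose. Cdkn1a went from 233 ± 7.86 to 128 ± 8.75 CPM (counts scaled for library size by TMM, mean ± SD, n = 2 per group). Cdkn1c went from 2.09 ± 0.450 to 3.83 ± 0.224 CPM. Cdkn1b, Cdkn2c and Cdkn2d did not pass the test, and Cdkn2a and Cdkn2b had 0 counts in every library. So 2 members were called at an adjusted p under 0.05 by the edgeR quasi-likelihood test, 1 in each direction, beside 24.9% of all 15078 genes tested. Of all tested genes, 14.1% were called higher and 10.8% lower. These are RNA levels of whole cultures, in which fewer cells of a type and less RNA per cell cannot be told apart.

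The libraries held between 37566321 and 92027838 counts, and the largest was C/EBPβ replicate 2. Cebpb stood at 80.9 ± 5.77 CPM with the empty vector and at 478 ± 7.00 CPM with C/EBPβ (n = 2), counts of the vector-borne copy included where they map to the gene. All 6 myoblast markers examined (Myod1, Myf5, Des, Cdh15, Itga7 and Vcam1) were detected in every library. Their summed level was 2810 and 3066 CPM with the empty vector and 1633 and 1906 CPM with C/EBPβ. Against this sum, Myf5 rose (log2 fold change 0.60, adjusted p from edgeR = 0.00179). Vcam1 was also higher in both C/EBPβ libraries but was not called (0.24, adjusted p = 0.139). Of 8 leukocyte markers 4 were at 0 throughout (Tyrobp, Adgre1, Itgam and Cd3e), and the summed level ran from 5.18 to 5.88 CPM in the control and from 7.55 to 7.71 CPM in the C/EBPβ libraries. The 5 endothelial markers summed to 0.344 to 0.462 and 0.419 to 0.566 CPM, with Emcn at 0. The 5 adipocyte markers summed to 0.132 to 0.243 and 5.51 to 9.96 CPM, nearly all from Fabp4, with Lep at 0. The part of these marker shifts in the results for the inhibitors was not tested.

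Cdkn1a encodes p21, which inhibits CDK2 complexes and binds PCNA. RefSeq gives it 2 start sites, and the gene-level counts cannot tell transcripts of 1 from those of the other. The stretches before both RefSeq starts (build GRCm38.p6, plus strand of chromosome 17) are shown because Cdkn1a was the abundant member that changed. The 2 lines begin 250 bases before each start and end 11 bases before it. Capitals mark matches to the p53 half-site in the upstream stretch, chr17:29090729-29090968, and matches to the GC box in the downstream stretch, chr17:29093519-29093758.
Cdkn1a upstream start: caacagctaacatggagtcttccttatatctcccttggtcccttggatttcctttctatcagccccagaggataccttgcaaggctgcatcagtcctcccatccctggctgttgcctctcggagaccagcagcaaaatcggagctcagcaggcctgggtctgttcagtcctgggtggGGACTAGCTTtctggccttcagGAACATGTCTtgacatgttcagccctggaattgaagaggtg
Cdkn1a downstream start: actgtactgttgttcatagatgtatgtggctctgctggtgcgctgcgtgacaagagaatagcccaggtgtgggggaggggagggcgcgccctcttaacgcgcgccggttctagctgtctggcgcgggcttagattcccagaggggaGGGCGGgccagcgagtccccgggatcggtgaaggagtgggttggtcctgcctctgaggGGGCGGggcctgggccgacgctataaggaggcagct

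The motifs were searched on both strands in windows from 250 bases before to 50 bases after each start. RefSeq windows were at hand for 6 of the 7 members (9 windows), all but Cdkn1c. The upstream Cdkn1a window held 2 matches to the p53 half-site, starting 73 and 51 bases before the start, and 8.36% of 32851 mouse windows held at least 1. The downstream window held 2 matches to GGGCGG, the GC box bound by Sp1-type factors, which 35.7% of windows held. GC boxes were also matched in the windows of Cdkn1b (1), Cdkn2a (3 and 1), Cdkn2b (1) and Cdkn2d (5) and in the first Cdkn2c window (4). A core of the C/EBP motif, TTGCNNAA, was in neither Cdkn1a window, and its palindromic form TTGCGCAA, which it contains, was in none of the 9. The only TTGCNNAA match lay in the second Cdkn2c window, ttgctgaa starting at base 23 after the start, against 10.8% of all windows with a match. The single other p53 half-site match was in the Cdkn2d window. E-boxes, CANNTG, were matched in both Cdkn1a windows, in the Cdkn2b window and in the second Cdkn2c window, beside 72.3% of all windows. The muscle-type form CAGCTG, 1 kind of CANNTG, was matched only in the upstream Cdkn1a window, 38 bases after the start, and in 16.3% of all windows. A match describes letters in these windows and is not evidence of binding.

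Cdkn1a (ENSMUSG00000023067) lies on the plus strand of chromosome 17 from 29090979 to 29100722 (GRCm38) and overlaps no other annotated gene. It had 9806 and 8599 counts in the control libraries and 4653 and 12344 in the C/EBPβ libraries. Scaled for depth, this was 238 and 227 CPM with the empty vector and 122 and 134 CPM with C/EBPβ. Both C/EBPβ libraries lay well below both controls, and the replicates of a group differed by far less than the groups. Groups did not overlap in 66.2% of all tested genes. The log2 fold change was -0.86 (SE 0.09, adjusted p = 2.97e-04), a ratio of 0.551 with a 95% interval from 0.479 to 0.633. Among tested genes 12.9% had a larger log2 fold change in size. The authors' deposited table gives -0.90 (SE 0.14, adjusted p = 2.43e-09) for Cdkn1a. The call held in each of 10 other settings, with log2 fold changes between -0.93 and -0.79.

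**Figure D1:**
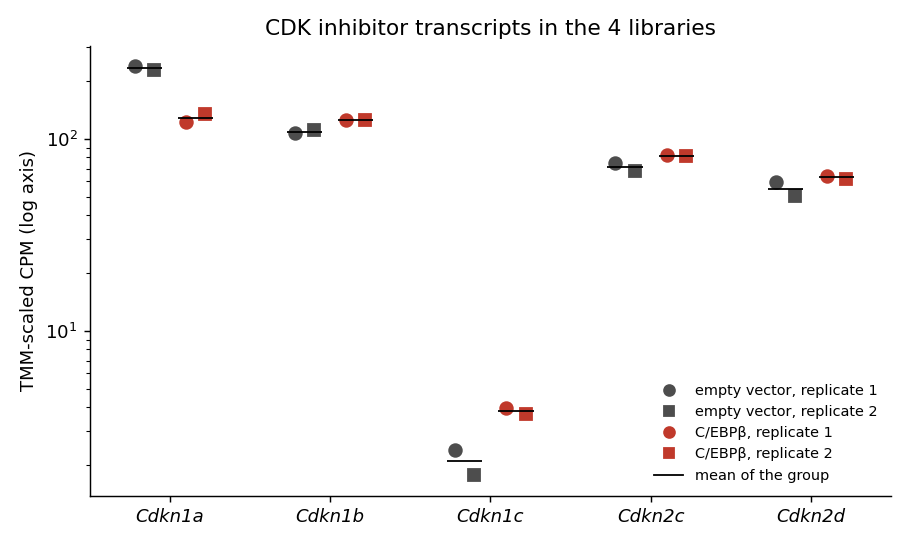
TMM-scaled CPM (log axis) of the 5 detected CDK inhibitor genes in each of 4 libraries, circles for replicate 1 and squares for replicate 2, with a line at each group's mean. Cdkn1a dropped from 233 to 128 CPM, Cdkn1c sat near 2 to 4 CPM and was higher with C/EBPβ, and the other 3 genes, which did not pass the test, had slightly higher values there.

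Cdkn1c encodes p57, a Cip/Kip inhibitor expressed from the maternal allele of an imprinted domain. It lies on the minus strand of chromosome 7 from 143458339 to 143461050, where the opposite-strand gene Gm44732 overlaps it with 11 counts over the 4 libraries. Cdkn1c had 99 and 67 counts in the controls and 152 and 337 in the C/EBPβ libraries. These were 2.41 and 1.77 CPM against 3.98 and 3.67 CPM. The groups did not overlap, as was true of 66.2% of all tested genes, but the controls were spread more widely than the C/EBPβ libraries. The log2 fold change was 0.86 (SE 0.21, adjusted p = 0.0168), a ratio of 1.82 with a 95% interval from 1.31 to 2.52. With empty vector replicate 2 left out, Cdkn1c no longer passed (log2 fold change 0.66, adjusted p = 0.0784), and the gene was too low to be tested under a filter of 5 CPM in 2 libraries. The authors' deposited table lists 0.81 (SE 0.22, adjusted p = 0.00145) for Cdkn1c.

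Cdkn1b encodes p27, an inhibitor of CDK2 complexes whose amount is set largely by protein turnover. It lies on chromosome 6 from 134920401 to 134925513. It stood at 107 and 111 CPM in the controls and at 126 and 125 CPM in the C/EBPβ libraries. Both C/EBPβ values exceeded both controls, and in 66.2% of all tested genes the groups likewise did not overlap. The difference did not pass after adjustment (log2 fold change 0.20, SE 0.08, adjusted p from edgeR = 0.0983). The unadjusted 95% interval of the ratio ran from 1.02 to 1.30, so a larger rise than that is outside it. In the same 2 groups Cdkn1a and Cdkn1b thus had values in opposite directions, and only that of Cdkn1a was called.

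Cdkn2c and Cdkn2d encode p18 and p19, the Ink4 proteins expressed in many growing and differentiating tissues. Cdkn2c (chromosome 4, from 109660876 to 109667189) had 74.8 and 68.0 CPM with the empty vector and 82.3 and 81.3 CPM with C/EBPβ. Cdkn2d (chromosome 9, from 21288410 to 21291407) had 59.3 and 50.7 CPM against 64.2 and 62.1 CPM. In both genes the C/EBPβ pair lay above the controls, and the controls were spread more widely than the C/EBPβ libraries. Such groups without overlap were found in 66.2% of all tested genes. Cdkn2c changed by 0.20 on the log2 scale without passing (SE 0.08, adjusted p = 0.131). The unadjusted 95% interval of its ratio ran from 1.002 to 1.31. For Cdkn2d the value was 0.20 (SE 0.10, adjusted p = 0.173), with an interval of the ratio from 0.985 to 1.34. Without empty vector replicate 1, the higher of the controls, Cdkn2d passed (0.32, adjusted p = 0.0392). The 3 uncalled members thus had nearly the same log2 fold change of 0.20, and over all tested genes the median was 0.000545. The authors' deposited table gives 0.16 for Cdkn1b, 0.15 for Cdkn2c and 0.16 for Cdkn2d, with adjusted p of 0.167, 0.406 and 0.536.

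**Figure D2:**
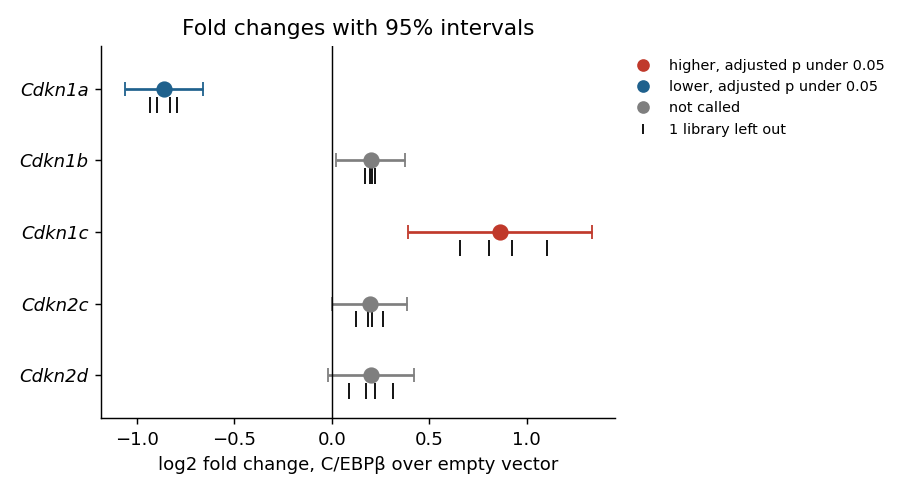
Log2 fold change of C/EBPβ over empty vector for the 5 tested members, with 95% intervals from the edgeR fit as bars and black ticks for the 4 fits that each leave out 1 library. Cdkn1a lay at -0.86 and Cdkn1c at 0.86, while Cdkn1b, Cdkn2c and Cdkn2d lay close together at 0.20.

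Levels of different members were compared per length as FPKM, the TMM-scaled CPM divided by the deposited length of the gene in kilobases. In all 4 libraries the order was Cdkn1a, Cdkn2d, Cdkn2c, Cdkn1b and Cdkn1c. With the empty vector the FPKM levels were 105 ± 3.54, 34.9 ± 3.88, 26.6 ± 1.80, 23.9 ± 0.623 and 1.02 ± 0.221 (n = 2). With C/EBPβ they were 57.6 ± 3.94, 40.1 ± 0.949, 30.4 ± 0.274, 27.5 ± 0.118 and 1.88 ± 0.110. Neighbours in this order did not overlap within either group, although Cdkn2c and Cdkn1b stood close in the controls (25.3 against 24.4 FPKM in replicate 2). By mean FPKM over the 4 libraries Cdkn1a ranked 647th and Cdkn1c 10754th of 15078 tested genes. The lengths are those of whole gene models, so a gene that is mostly transcribed as a short form is understated on this scale.

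Summed over the family, inhibitor RNA was 197.5 and 185 FPKM in the controls and 155.9 and 159.4 FPKM in the C/EBPβ libraries. Cdkn1a made up 54.8% ± 0.674 of that sum with the empty vector and 36.6% ± 1.92 with C/EBPβ (n = 2). Cdkn1b went from 12.5% to 17.4%, Cdkn2c from 13.9% to 19.3%, Cdkn2d from 18.2% to 25.5% and Cdkn1c from 0.534% to 1.19%. These shares must add up, so they rise in part because the Cdkn1a share fell. The summed Cip/Kip level was 131.9 and 127.5 FPKM against 84.4 and 89.7 FPKM, and without Cdkn1a it was 24.7 and 25.3 against 29.5 and 29.2 FPKM. The summed Ink4 level, from Cdkn2c and Cdkn2d alone, was 65.5 and 57.5 FPKM against 71.5 and 69.7 FPKM. The whole family sum was therefore lower in both C/EBPβ libraries, and among its members only Cdkn1a had a lower level there. The ratio of Cdkn1a to Cdkn1b FPKM was 4.56 and 4.19 in the controls and 1.99 and 2.20 with C/EBPβ. With 2 libraries a group these sums and ratios are descriptions without a test.

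**Figure D3:**
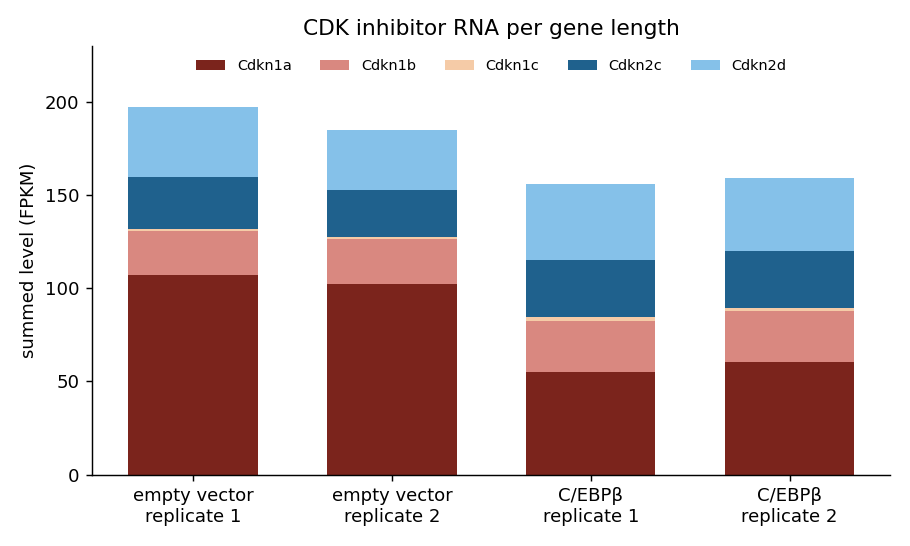
Stacked FPKM of the CDK inhibitor genes in each library (bar height is the summed level, colours are genes). The dark red Cdkn1a segment shrinks from 107 and 102 FPKM in the controls to 54.9 and 60.4 FPKM with C/EBPβ.

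Cdkn2a and Cdkn2b lie next to each other on the minus strand of chromosome 4, from 89274471 to 89294653 and from 89306289 to 89311032. Cdkn2a encodes p16 and, from another start and reading frame, ARF, a protector of p53, and Cdkn2b encodes p15, a known TGF-β target. Neither gene had a single count among 209163611 counts, which allows at most 0.0144 CPM each over the 4 libraries against a floor of 3 counts (counting error only). No group difference could therefore be tested for either gene. Reads that map to several places or to several genes were left out of the counts.

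Genes on either side were read as well. Mtap, a protein-coding gene from 89137122 to 89181081, had 10153 and 8892 counts in the controls and 6675 and 18417 in the C/EBPβ libraries. It fell by 0.36 on the log2 scale (adjusted p = 0.0253), and leaving out either empty vector replicate 1 (adjusted p = 0.0763) or C/EBPβ replicate 1 (adjusted p = 0.266) ended the call. Klhl9, farther along, had 4701 and 4739 counts in the controls and 4426 and 11408 in the C/EBPβ libraries, or 114 and 125 against 116 and 124 CPM (adjusted p = 0.977). Of 6 listed neighbours these 2 could be tested, and Dmrta1, Ifna1 and Ifnb1 were at 0 throughout while Elavl2 had counts in C/EBPβ replicate 2 alone. From Cdkn2a to Dmrta1 the annotation holds 7 genes, of which 6 had 0 counts, and the stretch held 3 counts in all. Gm12606, a noncoding gene between Mtap and Cdkn2a chosen here after its values were seen, had 12 and 14 counts in the controls and 0 and 34 with C/EBPβ. Counts were thus nearly absent from Cdkn2a to Dmrta1, while on the Mtap side a few genes were well counted and most others, interferon genes among them, were also at or near 0.

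**Figure D4:**
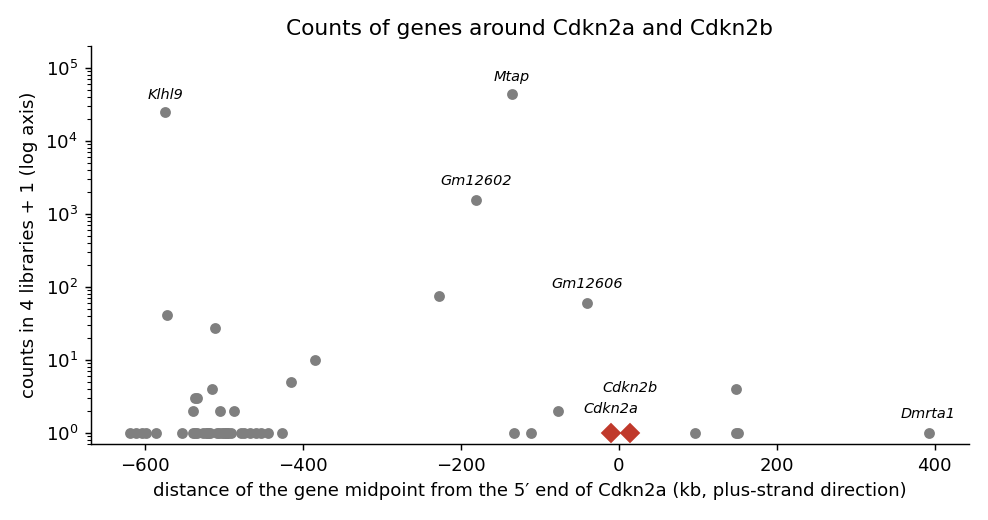
Counts summed over 4 libraries plus 1 (log axis) for each annotated gene, by the distance of its midpoint from the 5′ end of Cdkn2a in kb, with Cdkn2a and Cdkn2b as red diamonds. Both sit at 0 counts, as does Dmrta1 to their right, whereas Mtap and Klhl9 to their left hold at least 6675 and 4426 counts in each library.

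The kinases and cyclins that the inhibitors act on had lower RNA in C/EBPβ cells where they were called. Beside 10.8% of all tested genes called lower and 14.1% higher, 4 of 11 tested cyclins and CDKs fell and none rose (adjusted p under 0.05). This list of G1, S and mitotic genes, Ccnb1 and Cdk1 included, had a median log2 fold change of -0.24. The count of rises was also 0 with DESeq2, with limma-voom and at an unadjusted p under 0.05, where 7 were lower. Ccnd2, a D-type cyclin, stood at 54.6 ± 8.20 CPM against 15.7 ± 0.934 CPM (n = 2; log2 fold change -1.80, adjusted p from edgeR = 4.03e-05). Cdk6, a kinase target of the Ink4 proteins, stood at 134 and 149 CPM against 55.9 and 61.3 CPM (-1.27, adjusted p = 5.54e-05). Ccnd1, the other D-type cyclin called, had -0.72 (adjusted p = 0.00121). Cdk4, the more abundant Ink4 target, did not pass (-0.30, adjusted p = 0.0540), nor did Cdk2 (-0.24, adjusted p = 0.0524). Both lay near the threshold. Cdk4 passed with DESeq2 (0.0123), limma-voom (0.0409), no filter (0.0309), library totals (0.0485) and the replicate block (0.0331). With empty vector replicate 2 left out, the log2 fold change of Cdk4 was -0.36. Cdk2 passed with library totals (0.0434). Set against their kinases in FPKM, Cdkn2c plus Cdkn2d amounted to 0.349 and 0.329 of Cdk4 plus Cdk6 in the controls and to 0.517 and 0.469 with C/EBPβ. Cdkn1a amounted to 2.76 and 2.56 times Cdk2 in the controls and to 1.67 and 1.79 times with C/EBPβ. Relative to Cdk4 plus Cdk6, Cdkn1a amounted to 0.572 and 0.585 in the controls and to 0.397 and 0.406 with C/EBPβ. The RNA of Ink4 inhibitors relative to its kinases was thus higher with C/EBPβ in both libraries. That of Cdkn1a was lower relative to Cdk2 and to Cdk4 plus Cdk6. These ratios were not tested, and Cdkn2c, Cdkn2d and Cdk4 were not called themselves (adjusted p from edgeR = 0.131, 0.173 and 0.0540).

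Pocket proteins and E2F factors act below the kinases, and 4 of 13 fell while 1 rose (median -0.15). The shares over all tested genes were 10.8% lower and 14.1% higher. E2f2, an activating E2F, stood at 54.7 and 75.6 CPM against 14.1 and 23.3 CPM (-1.78, adjusted p = 8.71e-04). E2f4, which works with pocket proteins, had -0.44 (adjusted p = 0.00557) and E2f8, an atypical E2F, -0.48 (adjusted p = 0.0103). The single riser was Rbl2, a pocket protein of resting cells, at 55.3 and 59.6 CPM against 78.2 and 74.8 CPM (0.41, adjusted p = 0.00809). Without C/EBPβ replicate 1 the count was 1 lower and 0 higher, and Rbl2, E2f4 and E2f8 had adjusted p of 0.0579, 0.0527 and 0.0748.

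Genes of replication and proliferation were read as a gauge of cycling, and 3 of 17 fell and none rose (median -0.12). Over all tested genes 24.9% were called, 10.8% lower and 14.1% higher. By edgeR, DESeq2 and limma-voom alike 0 genes of this list rose, also at an unadjusted p under 0.05. Cdt1, a replication licensing factor, was lower by a log2 value of -0.31 (adjusted p = 0.0239), Bub1, a mitotic checkpoint kinase, -0.34 (adjusted p = 0.0392) and Mcm3, a helicase subunit, -0.27 (adjusted p = 0.0461). With C/EBPβ replicate 1 left out none of the 3 passed (adjusted p = 0.257, 0.239 and 0.385). With C/EBPβ replicate 2 left out 1 fell (Cdt1 had 0.0850 and Mcm3 0.106), and with empty vector replicate 2 left out 1 fell and 1 rose (Bub1 had 0.120 and Mcm3 0.0922). Mcm3 also missed the threshold with empty vector replicate 1 left out (0.0519), with no filter (0.0515) and with the filter of 5 CPM (0.0568). Mki67, a proliferation marker, stood at 238 and 331 CPM in the controls and at 336 and 336 CPM with C/EBPβ (0.24, adjusted p = 0.262), so the control libraries differed from each other more than the groups did. With empty vector replicate 2, the higher control, left out, Mki67 passed (0.49, adjusted p = 0.0138). Of 12 genes tied to turnover of the inhibitors by ubiquitin, ligase subunits and the deubiquitinase gene Usp28, none was called by edgeR (median -0.03). This stands beside 24.9% of all tested genes. DESeq2 and limma-voom also called 0 of the 12, and 0 passed at an unadjusted p under 0.05. The most abundant were Ddb1 (-0.07, adjusted p = 0.662) and Cdc20 (-0.12, adjusted p = 0.331), and Skp2, which marks Cdkn1b protein for destruction, stood at 60.4 and 62.1 CPM against 58.7 and 61.9 CPM.

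Besides Cdkn1a, 20 genes of the p53 pathway were listed, and 8 of them fell and 3 rose (median -0.21). By comparison, 10.8% of all tested genes were called lower and 14.1% higher. Pmaip1, a death-promoting BH3 protein, stood at 42.3 and 47.3 CPM against 10.4 and 14.9 CPM (-1.80, adjusted p = 1.59e-04). Plk2, a kinase, had -0.89 (adjusted p = 1.75e-04) and Eda2r, a death receptor, -1.04 (adjusted p = 3.59e-04). The risers were Fas, another death receptor, at 1.30 (adjusted p = 0.00528), Mdm4, a p53 inhibitor, at 0.56 (adjusted p = 0.0114), and Trp53inp1 at 0.49 (adjusted p = 0.0103). Trp53 itself stood at 197 and 190 CPM against 168 and 171 CPM (-0.19, adjusted p = 0.124). The p53 pathway thus moved in both directions, with falls the more frequent, and Cdkn1a was among the genes that fell. Without C/EBPβ replicate 1 the falls numbered 5 and the rises 3.

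**Figure D5:**
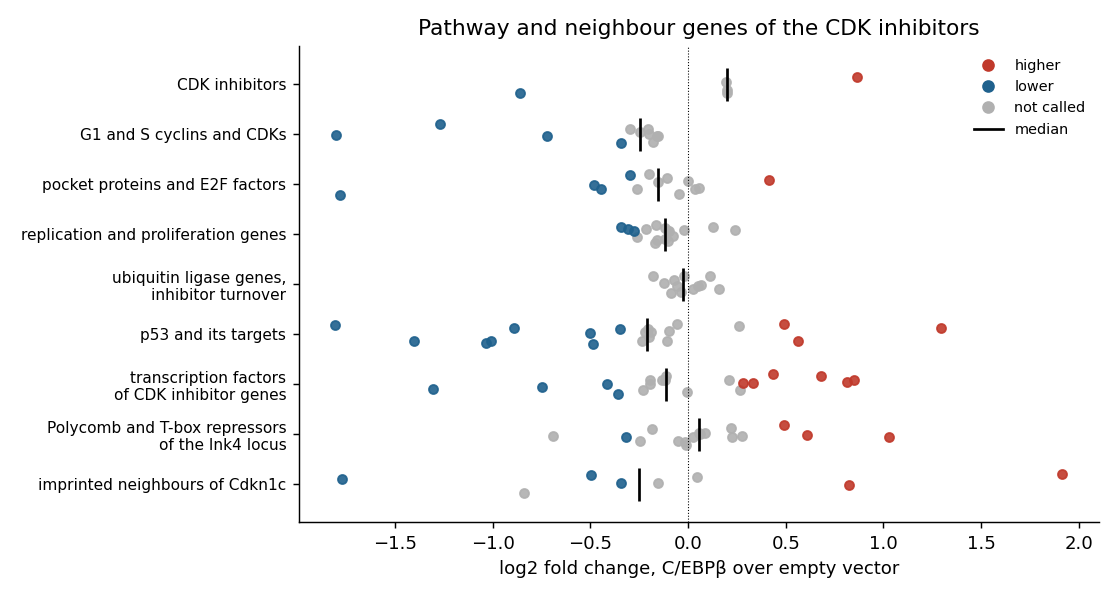
Log2 fold change of C/EBPβ over empty vector for each tested gene of 9 groups, the 5 tested inhibitors on top, red for higher, blue for lower and grey for not called, with a black line at each median. Called cyclins and CDKs all lie left of 0, the ubiquitin turnover genes lie near 0, and the p53 group has 8 blue and 3 red points.

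Of 21 transcription factors known to act on CDK inhibitor genes, 19 had enough counts, and 6 rose and 4 fell (median -0.11). Among all tested genes 14.1% were called higher and 10.8% lower. Klf4, an activator of Cdkn1a, stood at 160 and 175 CPM against 63.3 and 71.9 CPM (-1.31, adjusted p = 5.77e-05). Klf6, a related activator, had -0.41 (adjusted p = 0.00756), and Hes1, a Notch-responsive repressor, -0.75 (adjusted p = 0.00171). Myod1, the muscle determination factor that acts on Cdkn1a, stood at 175 and 166 CPM against 129 and 137 CPM (-0.36, adjusted p = 0.0151, but 0.152 when C/EBPβ replicate 1 was left out). Ets1 rose by 0.82 (adjusted p = 2.20e-04), Id1, an inhibitor of E-proteins, by 0.85 (adjusted p = 0.00679) and Foxo3 by 0.44 (adjusted p = 0.0117). The rises numbered 3 with empty vector replicate 1 left out and also 3 with C/EBPβ replicate 1 left out, and Foxo3 missed the threshold in both (adjusted p = 0.0501 and 0.100).

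Of 17 Polycomb and T-box genes tied to the Ink4 locus, 3 rose and 1 fell (median 0.06), beside 14.1% and 10.8% of all tested genes. Tbx3, a T-box repressor of the locus, stood at 16.7 and 14.6 CPM against 34.6 and 29.5 CPM (1.03, adjusted p = 5.23e-04). Kdm6b, a demethylase that removes the Polycomb mark, had 0.49 (adjusted p = 0.0278), but 0.123 and 0.108 as adjusted p when empty vector replicate 1 or C/EBPβ replicate 1 was left out. Eed, a subunit of the methylating complex, had -0.32 (adjusted p = 0.0329), and did not pass when empty vector replicate 1, empty vector replicate 2 or C/EBPβ replicate 1 was left out (adjusted p = 0.0571, 0.0798 and 0.324), while 2 genes were called lower when libraries were scaled by totals only.

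In the imprinted domain of Cdkn1c and the domain beside it, 8 of 11 listed genes had enough counts, and 2 rose and 3 fell (median -0.25). Rises made up 14.1% and falls 10.8% of all tested genes. Kcnq1ot1, the paternally expressed noncoding RNA of the Cdkn1c domain, stood at 1.99 and 2.19 CPM against 3.62 and 3.78 CPM, with a log2 fold change of 0.82 (adjusted p = 0.0118). It missed the threshold when empty vector replicate 1 was left out (0.75, adjusted p = 0.0588) and was not tested under the filter of 5 CPM. Its log2 fold change lay close to the 0.86 of Cdkn1c, which is expressed from the other parental allele. Per length, Kcnq1ot1 stood far below Cdkn1c. Its control and C/EBPβ means were 0.0248 and 0.0438 FPKM, against 1.02 and 1.88 FPKM for Cdkn1c. Igf2, an imprinted growth factor of the adjoining domain, stood at 14.4 and 10.3 CPM against 63.5 and 30.3 CPM (1.91, and 1.29 without C/EBPβ replicate 1). H19, the noncoding RNA beside Igf2, had 0.05 (adjusted p = 0.817). Tspan32, Cd81 and Tssc4 had -1.77, -0.50 and -0.34 (adjusted p = 4.27e-04, 0.00451 and 0.0389), and Tssc4 did not pass when empty vector replicate 1 or C/EBPβ replicate 1 was left out (adjusted p = 0.141 and 0.245). Levels in this domain did not move as a block, and Cdkn1c was among the genes that were higher.

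The genes whose levels ran most like those of the called members were found by the Euclidean distance of centred log2(CPM + 0.5) over the 4 libraries. For Cdkn1a these were Hpdl, Vmn2r78 and Rras2, at distances of 0.0274, 0.0334 and 0.0378. Vmn2r78 lay under 1 CPM (0.511 and 0.449 against 0.0262 and 0.0762), where the offset of 0.5 sets much of the distance, and its log2 fold change was -2.94 against the -0.86 of Cdkn1a. Hpdl was low as well, at 2.53 and 2.43 against 1.07 and 1.20 CPM. Rras2, a Ras-related GTPase and the only abundant gene of the 3, stood at 261 and 252 CPM against 131 and 150 CPM. For Cdkn1c they were Rbm12b1, Pcbp3 and Tmem56, at distances of 0.0290, 0.0553 and 0.0571. Pcbp3, an RNA-binding protein, stood at 9.63 and 7.48 CPM against 14.8 and 13.5 CPM, with control replicate 1 above control replicate 2 as in Cdkn1c. With 4 libraries many genes share such a pattern, and the distances describe these libraries only.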

How the data were processed

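RNA was sequenced in 4 strand-specific libraries, grouped by sample title. The deposited counts are whole fragments per gene, made with featureCounts 1.5.1 on GENCODE M12 with reverse strand setting, per the file headers; reads with several hits were not counted. The submitters' processing notes name HISAT2 2.0.4, featureCounts 1.4.6 and DESeq2, and the featureCounts versions were not reconciled. The authors' deposited table gives log2 fold changes and p-values of their comparison.

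Symbols matched 49326 of 49585 identifiers. After filterByExpr (minimum count 10, minimum total 15), 15078 genes were compared with edgeR 4.0.16 (R 4.3.3, TMM, quasi-likelihood test, Benjamini-Hochberg, threshold 0.05). SE is the log2 fold change divided by the root of F, and 95% intervals are unadjusted. Fits with DESeq2 1.42.0, limma-voom (limma 3.58.1), other scaling and filters, a replicate block, or 1 library left out were alternatives. No label says that replicates came from separate cultures; p-values therefore reflect the spread between these libraries, which may be technical. Named genes were all members, Cebpb, and from each list up to 3 called genes in each direction by adjusted p (the 2 most abundant where none passed); further genes (Cdk4, Cdk2, Mki67, Skp2, Trp53, Myod1, H19 and Klhl9) were named for their link to a member, after their values were seen, and 1 gene that the rule names is not reported here. Members and lists were chosen with earlier results of these data known. Promoter sequences are from RefSeq, build GRCm38.p6.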

Additional observations from a re-analysis of the deposited data

How the results depend on the processing

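Cdkn1a kept its direction and its call in all 10 other settings. The number of called inhibitors was 1 with a filter of 5 CPM in 2 libraries, which leaves out Cdkn1c, 2 with DESeq2, library totals, no filter, limma-voom and the replicate block, and between 1 and 3 when 1 library was left out. Over all genes, calls numbered 3759 and between 2493 (without C/EBPβ replicate 1) and 3462 with 1 library left out. The Cdkn1a share of the summed level was 49.5% and 31.9% when counts were not divided by gene length, because the long Cdkn1b then weighs more. Same-numbered libraries share only a number in the labels. Their deviations correlated at r = 0.147 over 15078 genes, and the fit with the replicate block called 4536 genes and 2 inhibitors, with log2 fold changes of -0.86 for Cdkn1a and 0.89 for Cdkn1c. Of 119 pathway genes tested, 32 lost or gained a call in at least 1 setting. Depth limits Cdkn1c, with 67 to 337 counts per library. Where 1 library of a group was left, it is assumed to vary like the other group.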
